A study of Mus musculus with 24 samples.

Results

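The tuberous sclerosis complex (TSC) and the mTOR complexes are described here through the RNA of 10 genes in sensory neurons of mice with and without deletion of Tsc2. The genes were listed by name: Tsc2, Tsc1 and Tbc1d7 of the TSC complex, the GTPase gene Rheb, and the mTOR complex subunit genes Mtor, Mlst8, Deptor, Rptor, Akt1s1 and Rictor. They were 10 of 47643 gene identifiers in the count data, and all 10 were among the 17178 genes that had enough counts to be tested.

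The data were RNA-seq counts from 24 libraries, 3 technical libraries of 100 sorted GFP-positive cells from each of 8 mice. Control mice carried Nav1.8-Cre, 1 floxed and 1 wild-type Tsc2 allele (flox/+) and the Rosa26-ZsGreen reporter, and Nav-Tsc2 mice carried Nav1.8-Cre, 1 floxed and 1 null Tsc2 allele (flox/null) and the same reporter. Each genotype had 4 mice aged 8-9 weeks on a mixed C57BL/6 and AJ background, of which replicates 1 and 2 were male and replicates 3 and 4 female. Cells came from the L4 dorsal root ganglia (DRG) opposite a sciatic nerve that had been crushed 3 d before, so that every mouse of both genotypes had an injured nerve on the other side. Nav1.8-Cre recombines floxed alleles in most nociceptors and in some other sensory neurons, so the control cells had themselves lost 1 copy of Tsc2 wherever Cre had acted. In Nav-Tsc2 mice the null allele was also present in every other cell of the body. There was no group with 2 intact Tsc2 alleles.

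In the TSC complex, Tsc2 (tuberin) is the subunit that makes Rheb hydrolyse its GTP, Tsc1 (hamartin) stabilizes Tsc2, and Tbc1d7 is the third subunit. Rheb bound to GTP activates the kinase mTOR within mTORC1, which contains raptor (Rptor) and promotes protein synthesis and cell growth, whereas mTORC2 contains rictor (Rictor) and phosphorylates kinases of the AGC family. In sensory neurons, mTORC1 is known for its roles in axonal protein synthesis, in cell size and in regrowth after injury.

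Of the 10 genes, Tsc2 fell and Tsc1 and Rptor rose in Nav-Tsc2 mice, and the other 7 were not called. Calls required an adjusted p below 0.05 together with an absolute log2 fold change above 0.5, by edgeR's quasi-likelihood F-test on counts summed per mouse with Benjamini-Hochberg adjustment over all 17178 genes. Thus 3 of 10 were called where 17.1% of all genes tested were. Among all genes, 8.00% were called lower and 9.12% higher. An adjusted p under 0.05 regardless of fold change was reached by 4 of the 10, with Mtor as the addition, against 21.1% of all genes. For the same 4 genes the values of the 4 control and 4 Nav-Tsc2 mice did not overlap, which was so for 26.9% of all genes. Directions were split, with 5 positive and 5 negative log2 fold changes and a median of -0.03 beside 0.01 over all genes. In the plot of fold changes by role, intervals cross 0 for Tbc1d7, Rheb, Mlst8, Akt1s1 and Deptor.

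**Figure D1:**
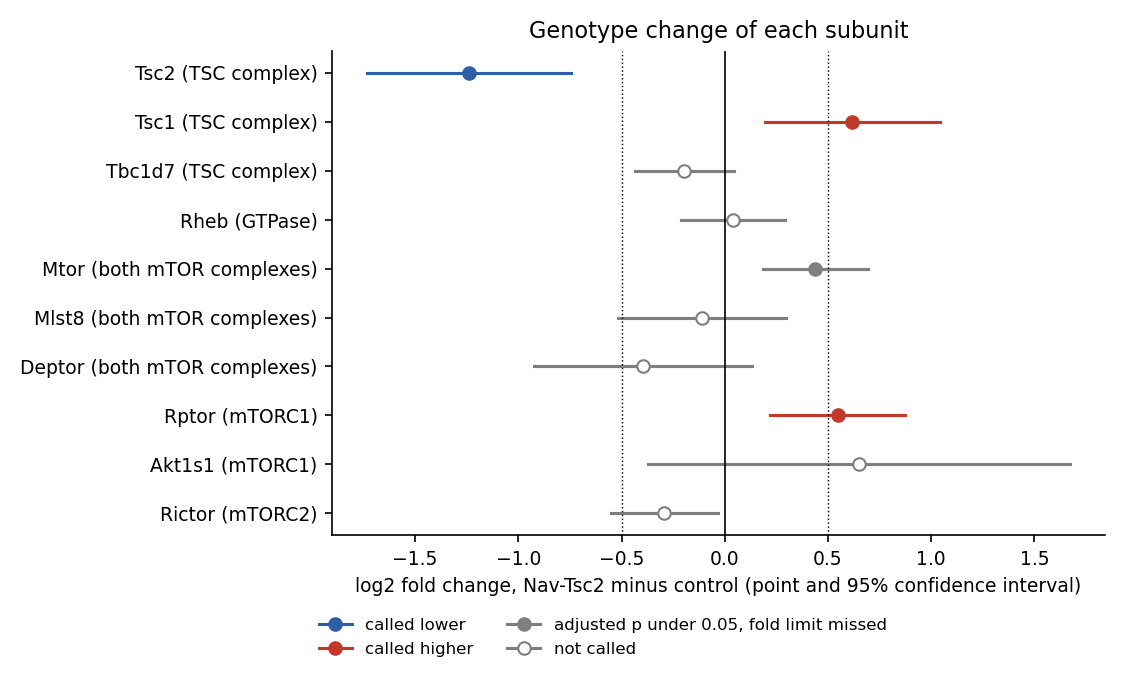
Log2 fold change of each of the 10 genes, Nav-Tsc2 minus control (n = 4 mice each), ordered by role, with 95% confidence intervals from edgeR; dotted lines mark the fold limits of -0.5 and 0.5. Tsc2 lies at -1.24, Tsc1 at 0.62 and Rptor at 0.55, and Mtor at 0.44 misses the fold limit.

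Levels are given as normalized CPM, gene counts put on an equal library total after TMM scaling. Gene counts per library ran from 8339220 to 34228180, and per mouse from 47959617 to 61290435. No 2 libraries held identical counts. Genes with a count numbered 15925 to 18544 in control and 17891 to 20466 in Nav-Tsc2 libraries, and 37.5 to 39.6% against 39.3 to 42.6% of all reads were not uniquely placed. The nociceptor marker Scn10a, which encodes Nav1.8, was at 670 ± 138 CPM in control and 608 ± 35.1 CPM in Nav-Tsc2 mice (SD, n = 4 mice each). Nociceptor markers, 11 with Scn10a included, were called in both directions, 3 lower and 1 higher. Their summed level was 11303 to 19995 CPM in control and 6920 to 10105 CPM in Nav-Tsc2 mice. This sum was weighted towards Calca, the most abundant of the 11, at 10162 ± 4518 CPM in control and 2557 ± 616 CPM in Nav-Tsc2 mice. Prph, the marker called higher, went from 902 ± 158 CPM to 1481 ± 291 CPM. Summed levels of 14 glial markers were 3121 to 3255 CPM against 2090 to 2693 CPM. Among them 1 was called lower, S100b, at 939 ± 166 CPM against 98.6 ± 71.2 CPM. The 5 markers of large-diameter neurons gave 560 to 993 CPM against 490 to 762 CPM, with 0 called. Endothelial markers summed to 0.326 to 1.83 CPM in control and 5.81 to 15.5 CPM in Nav-Tsc2 mice. Of these 5, Flt1 and Kdr were called higher, while Cldn5 and Cdh5 stayed under 1 CPM in every mouse. Macrophage markers summed to 0.669 to 3.76 CPM against 7.76 to 17.4 CPM, and of these 6, Cx3cr1 was called higher and C1qa and Ptprc stayed under 1 CPM. The sums were 73.1 to 236 CPM against 121 to 196 CPM for 6 fibroblast markers (0 called), 1.18 to 1.66 CPM against 0.144 to 0.389 CPM for 3 red blood cell markers (0 called), and 179 to 362 CPM against 232 to 258 CPM for 5 dissociation response genes (1 called lower, Fos). The part of these differences between libraries and in markers in the values of the 10 genes was not tested. Because each library pools 100 cells, fewer cells expressing a gene and less RNA per cell cannot be told apart.

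Tsc2, the deleted gene, was at 13.4, 24.7, 21.5 and 24.1 CPM in control mice 1 to 4 and at 8.70, 8.51, 7.30 and 11.0 CPM in Nav-Tsc2 mice 1 to 4. Every Nav-Tsc2 mouse lay below every control mouse, and control mouse 1 lay closest to them. The means were 20.9 ± 5.18 CPM and 8.87 ± 1.52 CPM (SD, n = 4 mice each), a fall of 57.6%. The log2 fold change was -1.24 (standard error 0.22, 95% confidence interval -1.73 to -0.74, edgeR adjusted p = 0.00400), and by its p-value Tsc2 ranked 1095 among the genes tested. Without control mouse 1 the log2 fold change was -1.40. Counts on the whole gene do not show which exons were read, so transcripts that lack the deleted exons are counted as Tsc2. The reference against which this fall was measured was a control with 1 floxed allele.

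Single libraries of 100 cells separated less sharply than mice. Tsc2 ranged from 9.86 to 29.0 CPM over the 12 control libraries (median 22.5) and from 6.08 to 13.4 CPM over the 12 Nav-Tsc2 libraries (median 8.55). Of the Nav-Tsc2 libraries, 8 lay below every control library, and 10 control libraries lay above every Nav-Tsc2 library. In control mice 2 and 3, 1 of the 3 libraries was at 14.2 and 12.6 CPM while the other two were at 22.4 CPM or more. The SD of log2 CPM among libraries of a mouse was 0.42, and that among mouse means of a genotype was 0.31.

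Tsc2 lies on chromosome 17 of GRCm38 (mm10) from 24595816 to 24632630 on the minus strand, with 40 exon blocks of 9620 bases in all. Of that exon sequence, 7.20% overlaps the end of Pkd1 on the plus strand, and the strand setting of the counting is not given in the sources used here. Pkd1, the polycystin-1 gene, had 10.4 ± 3.02 CPM in control and 6.46 ± 1.52 CPM in Nav-Tsc2 mice, with a log2 fold change of -0.69 (edgeR adjusted p = 0.114). At its other end Tsc2 faces Nthl1, a DNA glycosylase gene, whose annotated start lies 0.05 kb away on the plus strand. Nthl1 was at 4.38 ± 0.747 CPM in control and 4.56 ± 1.71 CPM in Nav-Tsc2 mice, a log2 fold change of 0.06 (standard error 0.31, edgeR adjusted p = 0.927). The stretch between the 2 genes is what the 250 bases before the start of Tsc2 hold outside annotated exons, and it is printed because both genes start at its ends; it is given 5′ to 3′ on the strand of Tsc2 (RefSeq, GRCm38.p6, chr17:24632631-24632679, minus strand).
Tsc2: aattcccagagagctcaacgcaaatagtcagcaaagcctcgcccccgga

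**Figure D2:**
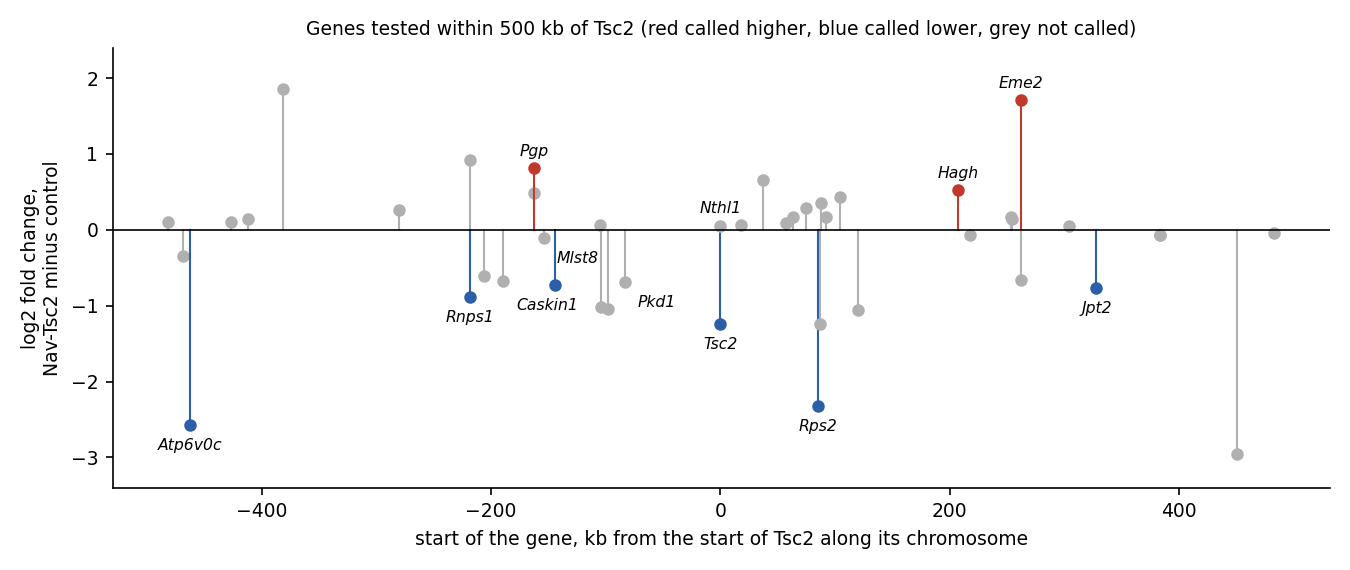
Log2 fold change (y axis, Nav-Tsc2 minus control) of the genes tested within 500 kb of Tsc2 against the distance of each start from that of Tsc2 (x axis, kb). Red genes were called higher, blue lower and grey not called; Tsc2 stands at -1.24 between Pkd1 at -0.69 and Nthl1 at 0.06.

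Genes around Tsc2 were called in both directions. Of 43 other genes tested within 500 kb of its start, 5 were called lower and 3 higher, or 18.6% beside 17.1% of all genes, and their median log2 fold change was 0.06. Those lower were Atp6v0c, a proton pump subunit gene (-2.58), the ribosomal protein gene Rps2 (-2.32), the splicing factor gene Rnps1 (-0.89), Jpt2 (-0.77) and Caskin1 (-0.73). Atp6v0c and Rps2 have near-identical copies elsewhere in the genome, and reads that align to several places were not counted, so their values are uncertain. Those higher were Eme2, an endonuclease subunit gene (1.71), Pgp (0.81) and Hagh (0.52), which encode a phosphatase and a hydrolase. Mlst8, the mTOR subunit gene in the same region, starts 154 kb from Tsc2 and had a log2 fold change of -0.11.

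Tsc1 was at 14.0, 13.5, 15.5 and 11.5 CPM in control mice and at 25.6, 16.4, 24.8 and 17.0 CPM in Nav-Tsc2 mice. The lowest Nav-Tsc2 mouse lay just above the highest control mouse, and Nav-Tsc2 mice 1 and 3 stood well above mice 2 and 4. Means were 13.6 ± 1.64 CPM and 21.0 ± 4.92 CPM (SD, n = 4 mice each). Its log2 fold change was 0.62 (standard error 0.19, 95% confidence interval 0.20 to 1.04, edgeR adjusted p = 0.0443). This call lay close to the threshold and was kept in 8 of 18 other fits, with log2 fold changes of 0.51 to 0.72 and adjusted p from 0.0154 to 0.303 in edgeR, limma and DESeq2 fits. It was lost without any 1 of control mice 1, 2 and 4 (edgeR adjusted p = 0.0777, 0.0854 and 0.0965) and without Nav-Tsc2 mouse 1 or 3 (edgeR adjusted p = 0.135 and 0.115). Libraries of control mouse 2 ran from 4.19 to 29.2 CPM for Tsc1, so that this mouse alone covered nearly the whole range of the 24 libraries.

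Expressed per kilobase of exon sequence, so that genes can be compared, Tsc2 was above Tsc1 in every control mouse and below it in every Nav-Tsc2 mouse. The ratio of Tsc2 to Tsc1 in CPM per kb was 1.18, 2.24, 1.71 and 2.57 in control mice 1 to 4, with a mean of 1.92 ± 0.611 (SD, n = 4 mice). It was 0.419, 0.638, 0.361 and 0.792 in Nav-Tsc2 mice 1 to 4, with a mean of 0.553 ± 0.199 (SD, n = 4 mice). The highest Nav-Tsc2 ratio was below the lowest control ratio, which follows from the lack of overlap of each gene and is no further result.

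Tbc1d7, the third TSC subunit, was the most abundant of the 10 genes per kilobase and was not called. It was at 119, 131, 106 and 95.4 CPM in control mice and at 104, 95.2, 103 and 92.9 CPM in Nav-Tsc2 mice. The ranges overlapped, and males of the control group were the highest. Tbc1d7 thus had a log2 fold change of -0.20 (95% confidence interval -0.44 to 0.05, edgeR adjusted p = 0.239).

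Rheb, the direct target of the complex, was at 80.3, 72.7, 98.0 and 73.9 CPM in control mice and at 76.3, 81.4, 90.1 and 86.4 CPM in Nav-Tsc2 mice. All Nav-Tsc2 values lay within the control range. For Rheb the log2 fold change was 0.04 (95% confidence interval -0.21 to 0.29, edgeR adjusted p = 0.842), the smallest of the 10, and it turned to just under 0 without control mouse 2 or 4.

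**Figure D3:**
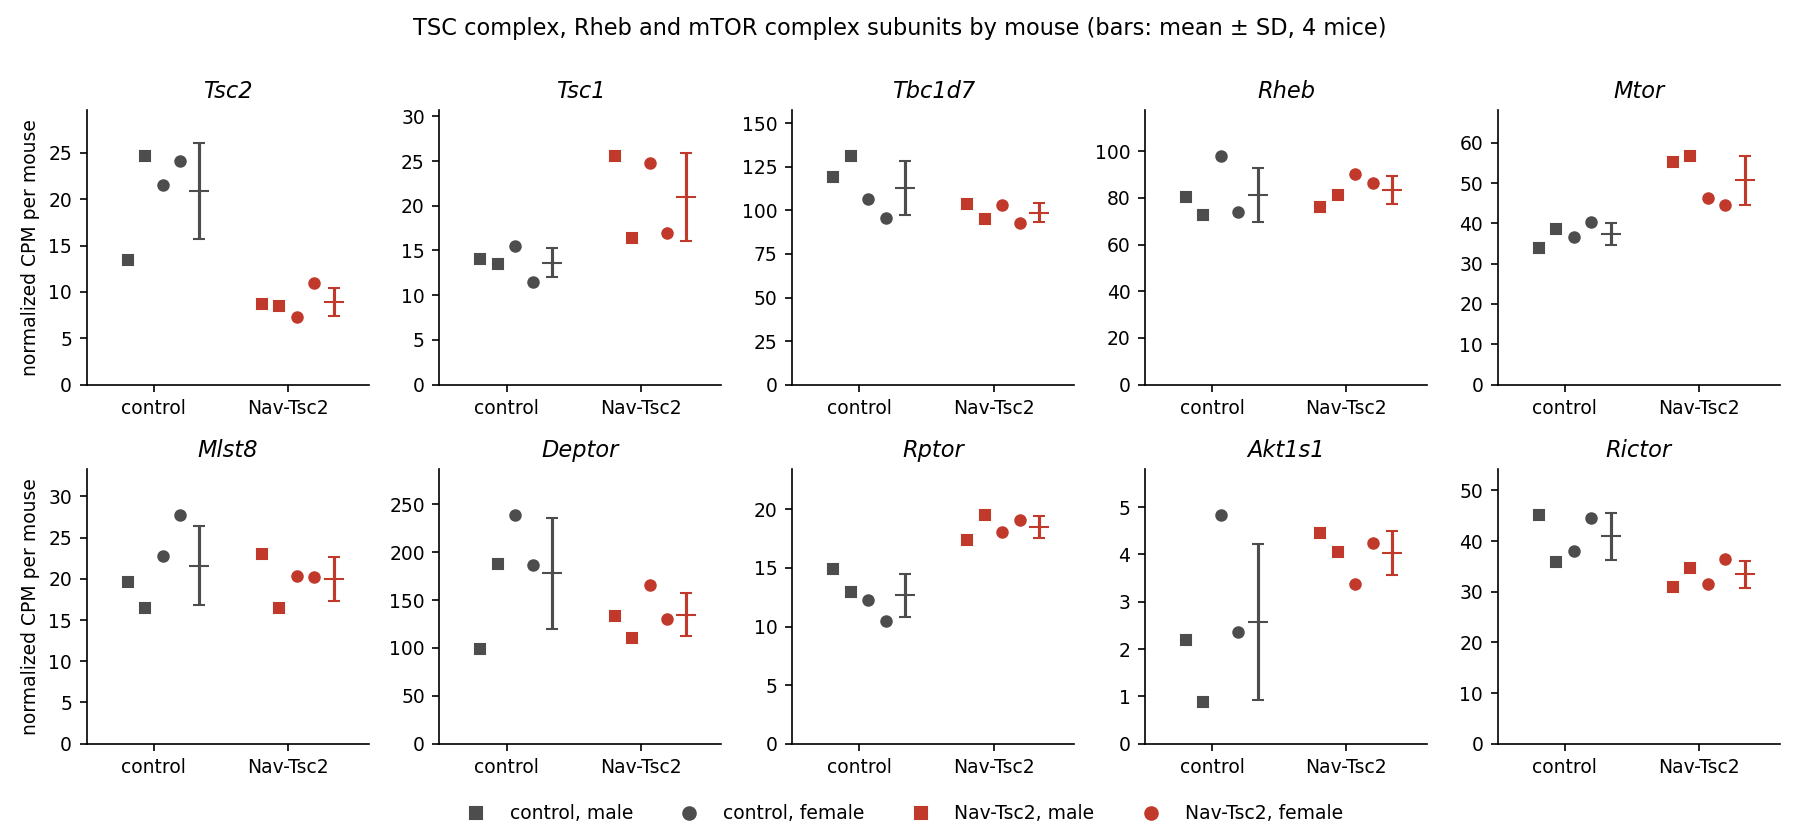
Normalized CPM (y axis, from 0) of the 10 genes in each mouse (points; squares male, circles female), with the mean ± SD of the 4 mice of a genotype beside them. Tsc2 is lower and Tsc1, Mtor and Rptor are higher in every Nav-Tsc2 mouse than in any control mouse, and the other 6 genes overlap.

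Among the subunits shared by both mTOR complexes, Mtor, the kinase itself, was at 33.9, 38.6, 36.7 and 40.3 CPM in control mice and at 55.1, 56.7, 46.4 and 44.5 CPM in Nav-Tsc2 mice. The genotypes did not overlap, and the 2 male Nav-Tsc2 mice were the highest. The log2 fold change was 0.44 (standard error 0.11, 95% confidence interval 0.18 to 0.69, edgeR adjusted p = 0.0237), which passed the adjusted p limit but not the fold limit. Of the 12 Nav-Tsc2 libraries, 8 lay above the highest control library, at 48.8 CPM. Its adjusted p stayed under 0.05 in 13 of 18 other fits, and the log2 fold change ran from 0.24 to 0.62.

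Mlst8, a subunit that binds the kinase domain of mTOR, was at 19.6, 16.4, 22.7 and 27.7 CPM in control mice and at 23.0, 16.5, 20.3 and 20.3 CPM in Nav-Tsc2 mice. The Nav-Tsc2 values all fell inside the control range. On the log2 scale the change was -0.11 (95% confidence interval -0.52 to 0.30, edgeR adjusted p = 0.725), and it was 0.03 without control mouse 4. Of the exon sequence of Mlst8, 22.5% overlaps Bricd5 on the other strand, the largest such share among the 10 genes.

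Deptor, an inhibitor of mTOR kinase activity, was the gene of the 10 with the most counts. It was at 98.4, 187, 239 and 187 CPM in control mice and at 134, 110, 165 and 130 CPM in Nav-Tsc2 mice. Control mouse 1 had the lowest value of all 8 mice and the other 3 control mice the 3 highest. Deptor had a log2 fold change of -0.40 (95% confidence interval -0.93 to 0.13, edgeR adjusted p = 0.274), and without control mouse 1 it was -0.60 (edgeR adjusted p = 0.0268), which met both limits. Per kilobase, the ratio of Deptor to Mtor was 5.38 ± 1.68 in control and 3.09 ± 0.793 in Nav-Tsc2 mice (SD, n = 4 mice each), with ranges of 3.30 to 7.40 and 2.21 to 4.06 that overlapped.

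Of the subunits particular to mTORC1, Rptor, the scaffold that recruits substrates, was at 14.9, 13.0, 12.3 and 10.4 CPM in control mice and at 17.4, 19.5, 18.1 and 19.1 CPM in Nav-Tsc2 mice. All Nav-Tsc2 mice lay above all control mice and close to each other. Means were 12.7 ± 1.85 CPM and 18.5 ± 0.957 CPM (SD, n = 4 mice each). The log2 fold change was 0.55 (standard error 0.15, 95% confidence interval 0.22 to 0.88, edgeR adjusted p = 0.0263). Rptor was called in 9 of 18 other fits, with log2 fold changes of 0.39 to 0.71 and adjusted p from 0.00207 to 0.241 in edgeR, limma and DESeq2 fits. Without control mouse 4 the log2 fold change was 0.46 (edgeR adjusted p = 0.0515), and the call was also lost without any single Nav-Tsc2 mouse (edgeR adjusted p = 0.0568, 0.0780, 0.0521 and 0.0729 without mouse 1 to 4). Among libraries it was as low as 3.05 CPM in control mouse 4 and as high as 29.6 CPM in Nav-Tsc2 mouse 4, and its SD of log2 CPM among libraries of a mouse, 0.59, was the widest of the 10.

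**Figure D4:**
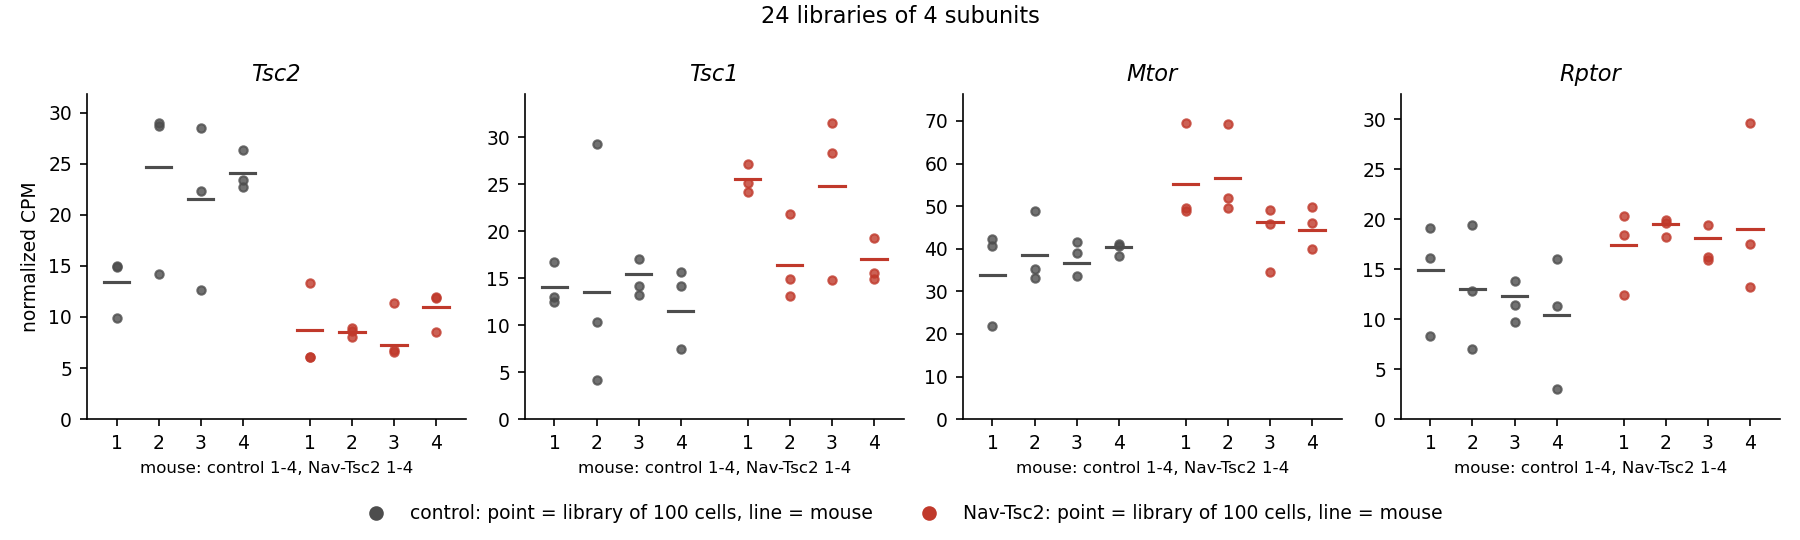
Normalized CPM (y axis, from 0) of Tsc2, Tsc1, Mtor and Rptor in each library of 100 cells (points, 3 per mouse) and in the summed counts of each mouse (lines), for control mice 1 to 4 and Nav-Tsc2 mice 1 to 4 (x axis). Libraries overlap between genotypes for all 4 genes, as for Tsc1 in control mouse 2, whose libraries run from 4.19 to 29.2 CPM.

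Akt1s1 encodes PRAS40, an inhibitory mTORC1 subunit and Akt substrate, and was the gene of the 10 with the fewest counts, 11 to 201 per library. It was at 2.19, 0.890, 4.83 and 2.35 CPM in control mice and at 4.44, 4.05, 3.38 and 4.23 CPM in Nav-Tsc2 mice. Control mouse 3 had the highest value of all, so the ranges overlapped. Akt1s1 had a log2 fold change of 0.65, with a 95% confidence interval from -0.37 to 1.67 (edgeR adjusted p = 0.358), the widest interval of the 10. In a limma-voom fit on the 24 separate libraries, with mouse as random effect, it was 0.96 (adjusted p = 0.0386) and met both limits of a call.

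Rictor, the scaffold of mTORC2, was at 45.1, 35.9, 38.1 and 44.6 CPM in control mice and at 30.9, 34.6, 31.6 and 36.5 CPM in Nav-Tsc2 mice. The groups overlapped only by control mouse 2 and Nav-Tsc2 mouse 4. The log2 fold change was -0.29 (standard error 0.12, 95% confidence interval -0.55 to -0.03), but its adjusted p over all genes was 0.106 by edgeR. The adjusted p was under 0.05 in 1 of 18 other fits, limma-voom on the 24 libraries with mouse as random effect. There it was 0.0247, with a log2 fold change of -0.30 that missed the fold limit. Rictor was also the steadiest of the 10 among libraries, with an SD of log2 CPM of 0.19 within mice. Per kilobase, the ratio of Rptor to Rictor was 0.416, 0.455, 0.406 and 0.294 in control mice 1 to 4, with a mean of 0.393 ± 0.0692 (SD, n = 4 mice). In Nav-Tsc2 mice 1 to 4 it was 0.707, 0.708, 0.720 and 0.655, with a mean of 0.698 ± 0.0288 (SD, n = 4 mice). The 2 ranges lay apart, which follows from the ranges of each gene in the 2 genotypes and is no further result. Rptor stayed below Rictor in each of the 8 mice.

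Ordered by CPM per kb of exon sequence in control mice, Tbc1d7 (28.0), Deptor (20.0) and Rheb (10.5) came first, followed by Mlst8 (4.87), Mtor (3.70), Rictor (2.42), Tsc2 (2.18), Tsc1 (1.15), Rptor (0.940) and Akt1s1 (0.835). Neighbours in this order overlapped between mice except at the gaps from Rheb to Mlst8, from Mtor to Rictor and from Tsc2 to Tsc1. In Nav-Tsc2 mice the top 3 were the same genes, at 24.4, 15.2 and 10.8 CPM per kb and without overlap. Mtor (5.01) stood above Mlst8 (4.51), with overlap, and both stood apart from the rest. Rictor (1.97), Tsc1 (1.77), Rptor (1.37), Akt1s1 (1.31) and Tsc2 (0.922) each overlapped the next. Tsc2 was thus 7 in rank in control and 10 in rank in Nav-Tsc2 mice. The length used was that of all annotated exons of a gene joined, not of the transcripts these cells use.

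Both sexes were present in each genotype. In males the log2 fold change was -1.15 for Tsc2, 0.60 for Tsc1, 0.62 for Mtor and 0.39 for Rptor, and in females it was -1.32, 0.63, 0.24 and 0.71. For all 4, the mice of the genotypes did not overlap, so the same direction in both sexes was fixed in advance. None of the 10 passed the edgeR test of an interaction of genotype and sex (smallest adjusted p = 0.599, 0 of 10 at an unadjusted p under 0.05). Of the 17178 genes, 1 passed it and 1583 were at an unadjusted p under 0.05. With 2 mice per genotype and sex, the standard error of the difference between the sexes was 0.17 to 0.81 on the log2 scale.

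Upstream sequences are shown for the 3 genes that were higher without overlap between genotypes, 5′ to 3′ on the strand of the gene (RefSeq, GRCm38.p6). They are the bases, of the 250 before the RefSeq start, that no annotated exon covers. They are Tsc1 at chr2:28640983-28641227, Mtor at chr4:148448332-148448581 and Rptor at chr11:119602655-119602904, all on the plus strand. Capitals mark matches, on either strand, to the CCAAT box (CCAAT) and the GC box (GGGCGG).
Tsc1: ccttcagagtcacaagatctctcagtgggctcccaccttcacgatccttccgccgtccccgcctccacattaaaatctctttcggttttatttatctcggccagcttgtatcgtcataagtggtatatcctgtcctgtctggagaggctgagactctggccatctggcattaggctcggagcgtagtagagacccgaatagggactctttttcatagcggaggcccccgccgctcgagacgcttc
Mtor: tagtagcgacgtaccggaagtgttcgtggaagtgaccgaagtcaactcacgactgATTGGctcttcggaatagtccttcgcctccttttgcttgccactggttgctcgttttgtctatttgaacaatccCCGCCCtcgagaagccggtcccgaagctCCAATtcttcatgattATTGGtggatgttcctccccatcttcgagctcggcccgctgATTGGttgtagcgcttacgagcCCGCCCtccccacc
Rptor: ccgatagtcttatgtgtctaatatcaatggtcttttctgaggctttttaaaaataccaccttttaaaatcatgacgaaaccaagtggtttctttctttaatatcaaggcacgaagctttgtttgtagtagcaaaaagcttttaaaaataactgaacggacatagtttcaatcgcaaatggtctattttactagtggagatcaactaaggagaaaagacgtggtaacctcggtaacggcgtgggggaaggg

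Promoter windows of 300 bases, 250 before and 50 after the start, were found for 9 of the 10 genes, all but Deptor. They were searched on both strands for 4 motifs, the E-box CACGTG (in 7.24% of 27025 promoters), the CCAAT box (37.9%), the GC box GGGCGG (35.9%) and the cAMP response element TGACGTCA (1.88%). Mtor held 4 CCAAT and 2 GC boxes. Tsc1, Rptor, Tsc2 and Mlst8 held none of the 4 motifs. Rictor held 4 GC boxes and 1 CCAAT box, of which 2 matches overlap, Akt1s1 held 2 GC boxes, and the E-box was present in Tbc1d7 and Rheb, 1 each, the latter with 1 GC box. The windows held 29 CpG sites for Tsc2, 20 for Tsc1, 21 for Mtor, 13 for Rptor and 47 each for Rheb and Rictor, against a median of 7 over all promoters. The 3 genes with higher levels had no motif of the 4 in common in these windows.

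Genes around the TSC and mTOR complexes were followed in 9 lists, from inputs to the TSC complex to substrates of the mTOR complexes. Of 79 genes listed, 76 could be tested, with 8 calls lower and 10 higher, or 23.7% beside 17.1% of all genes, with a median log2 fold change of -0.01. Calls fell on inputs, substrates and 1 FK506-binding protein. In the lists for turnover and location of TSC and Rheb proteins (9 tested, median -0.16), further mTORC2 partners (2 tested, median 0.07), assembly of the mTOR complexes (9 tested, median -0.10) and degradation of Deptor (4 tested, median -0.03), edgeR called 0 genes, and 1, 0, 2 and 0 of them had an adjusted p under 0.05.

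**Figure D5:**
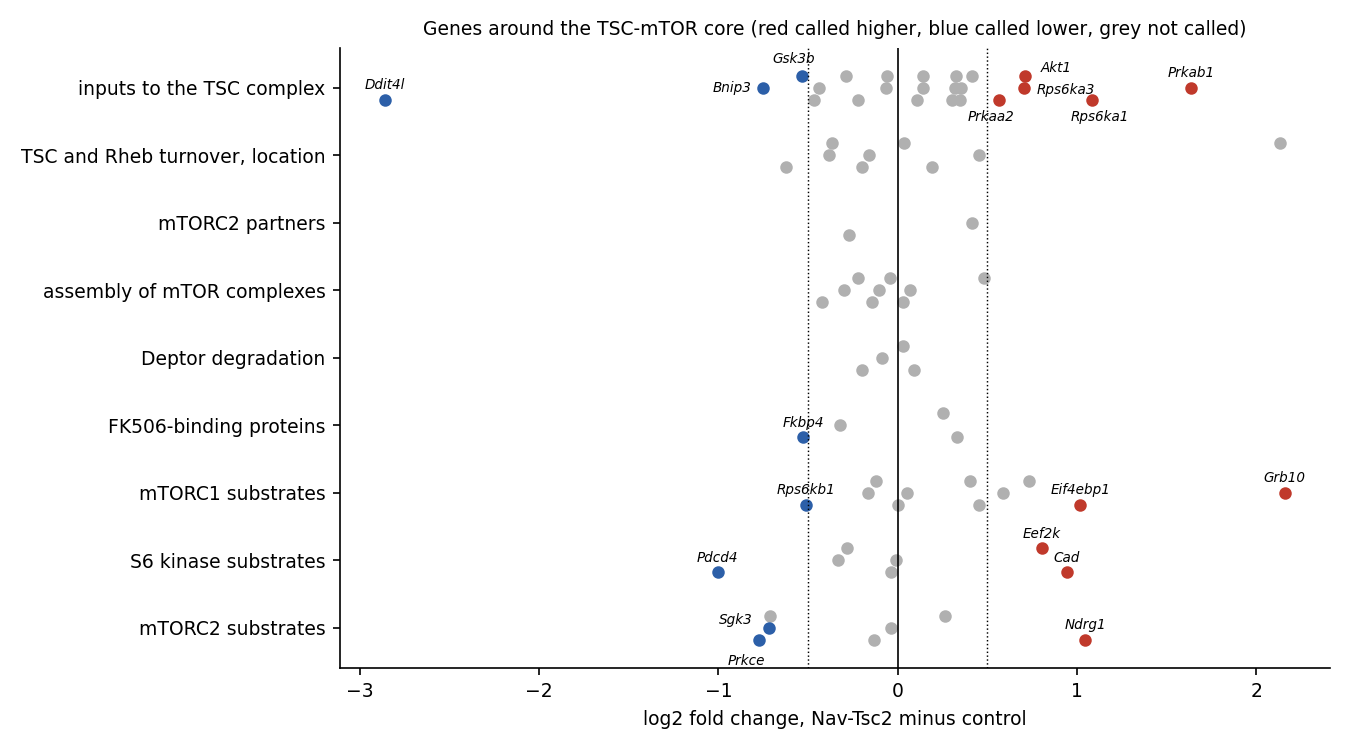
Log2 fold change (x axis, Nav-Tsc2 minus control) of the 76 tested genes of the 9 lists (rows), 1 point per gene; red genes were called higher, blue lower and grey not called, and dotted lines mark the fold limits. Called genes lie in the rows of inputs, FK506-binding proteins and substrates, from Ddit4l at -2.86 to Grb10 at 2.16.

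Of 23 tested inputs to the TSC complex, 5 were higher and 3 lower (median log2 fold change 0.14). Akt1, a kinase that phosphorylates and inhibits Tsc2, rose from 86.4 ± 15.0 CPM to 141 ± 20.4 CPM (log2 fold change 0.71, edgeR adjusted p = 0.00731). Prkab1, a regulatory subunit of AMPK, which activates Tsc2, rose from 2.67 ± 0.782 CPM to 8.29 ± 0.916 CPM (1.63, edgeR adjusted p = 0.00235). The others that rose were Rps6ka1, Rps6ka3 and Prkaa2, with log2 fold changes of 1.08, 0.70 and 0.57. Bnip3, a mitochondrial hypoxia-response protein that binds Rheb, fell from 261 ± 19.8 CPM to 155 ± 12.6 CPM (-0.75, edgeR adjusted p = 0.000498). Ddit4l, a relative of the stress-induced mTORC1 inhibitor Ddit4, fell from 6.11 ± 2.39 CPM to 0.841 ± 0.428 CPM (-2.86, edgeR adjusted p = 0.00514), and Gsk3b was the third, at -0.54. Among these 8, Akt1, Rps6ka1 and Rps6ka3 are kinases that inhibit the TSC complex, while Prkab1, Prkaa2 and Gsk3b belong to kinases that activate it.

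Among 11 tested mTORC1 substrates (median log2 fold change 0.40), 2 were higher and 1 lower. Grb10, an adaptor that restrains insulin receptor signaling, rose from 20.4 ± 7.41 CPM to 91.0 ± 10.5 CPM (log2 fold change 2.16, edgeR adjusted p = 0.000278). Eif4ebp1, the translation repressor 4E-BP1, rose from 4.30 ± 1.39 CPM to 8.71 ± 2.25 CPM (1.02, edgeR adjusted p = 0.0341). Rps6kb1, which encodes S6 kinase 1, fell from 73.6 ± 5.93 CPM to 51.7 ± 7.84 CPM (-0.51, edgeR adjusted p = 0.0180), close to the fold limit.

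Of 7 tested S6 kinase substrates (median log2 fold change -0.04), 1 was lower and 2 were higher. Pdcd4, an inhibitor of translation initiation, fell from 143 ± 32.8 CPM to 71.1 ± 8.89 CPM (log2 standard error 0.17, edgeR adjusted p = 0.00280). Eef2k, which slows elongation, and Cad, the first enzyme of pyrimidine synthesis, rose by log2 fold changes of 0.80 and 0.94 (edgeR adjusted p = 0.00755 and 0.0360). Rps6 and Irs1 stayed under 1 CPM in every mouse, and Rps6, the ribosomal protein itself, has near-identical copies, so its value is uncertain. Of 7 tested mTORC2 substrates or their targets (median -0.13), the protein kinase genes Prkce and Sgk3 fell, by -0.78 and -0.72, and Ndrg1, phosphorylated by the kinase Sgk1, rose by 1.05 (edgeR adjusted p = 0.00157, 0.0196 and 0.00335). Of 4 FK506-binding proteins (median -0.04), the co-chaperone gene Fkbp4 fell, with a log2 fold change of -0.53 (edgeR adjusted p = 0.00542), while Fkbp1a, whose product binds rapamycin, went from 219 ± 22.3 CPM to 260 ± 12.6 CPM (0.25) and was not called.

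The genes whose log2 CPM followed 3 of the 10 most closely over the 8 mice were sought among 8436 genes with a mean of at least 10 CPM. For Tsc2 they were Slc25a25 (Pearson's r = 0.974), Il31ra (0.973), Slc4a11 (0.973), 1190002N15Rik (0.969) and Trpm2 (0.967), each of them called lower. For Mtor they were Gga2 (0.976), Syt5, Mrgpre, Cyp4f16 (each 0.970) and Surf4 (0.968), of which Syt5, Mrgpre and Cyp4f16 were called higher. For Deptor they were Cd82 (0.958), Eif5a2 (0.945), Prim1 (0.933), Eif2b2 (0.932) and Actn1 (0.928), and none of the 5 was called by edgeR. The 8 points share the difference between genotypes, and r includes it. Over the 24 libraries, Trpm2 remained in the top 5 for Tsc2 (0.823), Cd82 remained for Deptor (0.741), and the top 5 for Mtor were different genes.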

How the data were processed

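RNA-seq was analysed from 24 libraries of Nav1.8-positive L4 DRG neurons, made with a kit for low RNA input (13 and 15 PCR cycles, 50-base single reads). Alignment to mm10 was done by the authors with STAR, and the deposited count values, from HTSeq, are whole reads per gene and library, not normalized; versions and strand setting are not given in the sources used here. Alignments to several places were not counted, and 10.7 to 18.7% of uniquely placed reads fell on no gene. The authors' table of DESeq2 results (size-factor normalized values, fold changes, p-values) was not used.

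Identifiers were matched to the GENCODE annotation of GRCm38 without version numbers (47224 of 47643 matched). The 3 libraries of each mouse were summed, and counts were filtered with filterByExpr, scaled by TMM and tested with edgeR 4.0.16 (R 4.3.3, limma 3.58.1); standard errors are log2 fold changes over the root of the F statistic. The test was tried on simulated counts. Reads carry no molecular identifiers, so counting error understates noise, and the SD over mice is given instead. Named genes were all 10 members, at most 2 called genes per direction and list by smallest adjusted p, called genes within 500 kb of Tsc2, the 5 genes most like Tsc2, Deptor and Mtor, and Pkd1 and Nthl1. Outside this rule, and picked once values were known, are Rps6ka1, Rps6ka3, Prkaa2, Gsk3b, Fkbp1a, Rps6, Irs1 and the marker genes named. Members and lists were chosen with earlier results of these data known. The promoter motifs were chosen after the data were seen. Log2 CPM for likeness and spread used a pseudocount of 0.5 CPM. Tried as alternatives were DESeq2 1.42.0, its size factors or upper-quartile scaling within edgeR, all genes without filtering, sex or a replicate block in the model, equal weights for libraries, limma-voom on 24 libraries with mouse as random effect, each mouse left out, each sex alone and other thresholds.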

Additional observations from a re-analysis of the deposited data

How the results depend on the processing

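Tsc2 was called lower in 16 of 18 other fits, all but those within 1 sex, with log2 fold changes of -1.40 to -1.15. It missed the threshold with males only (-1.15, edgeR adjusted p = 0.0749) and females only (-1.32, edgeR adjusted p = 0.0784), fits on 2 mice per genotype, so 0 members were called lower in either. The count of members called higher, 2, became 1 with upper-quartile scaling (Rptor), with sex as a covariate (Rptor), with males only (Mtor) and with the replicate block (Tsc1), and 0 without the low-count filter and with females only. It rose to 3 with mouse as random effect on 24 libraries (Tsc1, Rptor, Akt1s1) and with the adjusted p alone as limit (Tsc1, Mtor, Rptor). With 1 mouse left out it ranged from 0 to 2, and the members called lower from 1 to 2, the second being Deptor without control mouse 1. The fit without the low-count filter covered 30194 genes. For none of these settings was the cause of the change in calls tested. Signs turned only for small values. With 1 mouse left out, Rheb ranged from -0.00890 (without control mouse 2; it was also under 0 without control mouse 4) to 0.135, and Mlst8 from -0.223 to 0.0311 (without control mouse 4). Mlst8 was at 0.12 with males only.

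In the fit with the replicate block, Rptor was at 0.56 (edgeR adjusted p = 0.0683), Mtor at 0.43 (0.0663), Tsc1 at 0.60 (0.0493) and Tsc2 at -1.22 (0.0140), and 1116 genes were called lower and 1329 higher. Equal replicate numbers were not taken to pair the mice, since the correlations, across 8445 genes, of same-numbered mice around their genotype means were 0.101, 0.121, 0.0341 and 0.124 for numbers 1 to 4, not all above 0.1. With a pseudocount of 0.05 in place of 0.5 CPM, chosen after seeing the data, they were 0.173, 0.177, 0.0978 and 0.189. Number 3 thus came close to the limit. Not every mouse correlated best with its own number. Same-numbered mice were also of the same sex. With 0.5 CPM, pairs of the same sex, whatever their numbers, ran from -0.00510 to 0.124. Pairs of different sex ran from -0.186 to -0.0195. The part of sex in these correlations was not tested.

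Over all genes, 186 were called lower and 308 higher with females only, 1160 and 1424 with males only, and 1374 and 1567 in both sexes. With mouse as random effect the split was 1253 lower and 2207 higher. Medians of the log2 fold change over all genes lay between -0.02 and 0.09 in every fit. Akt1s1 ran from 0.09 with females only to 1.45 with males only.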
